A study of Rattus norvegicus with 72 samples.

Results

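A group of 10 genes of antigen presentation and the immunoproteasome was followed across all groups of the study: Psmb8, Psmb9, Psmb10, Tap1, Tap2, Tapbp, B2m, Cd74, RT1-Da and Ubd. They were chosen by symbol, as the probe sets whose platform annotation gives a single gene symbol equal to one of these names. That rule gave 12 probe sets for the 10 genes, out of 20826 single-symbol probe sets (14217 symbols) and 31042 probe sets in all. Tap1 and B2m had a pair of probe sets each, and every gene is described by its brighter one.

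RNA of rats was measured on Affymetrix arrays, whose short probes are summarised as probe sets, a signal per probe set and array. The arrays held mammary gland, adipose tissue and liver of rats in lactation or pregnancy, in hypergravity (more than normal gravity) or at standard gravity. These 12 groups had 5 arrays each, and array codes repeat 20 rat numbers across the 3 tissues. A separate set held mammary gland of pregnant rats in microgravity, in a flight control and in a vivarium control, with 4 arrays each. Arrays M210H and A210H, a mammary and an adipose array of lactating rats in hypergravity whose tissue markers are exchanged, were left out, so those groups had 4 arrays, and 70 of 72 arrays were used. Strain, age, day of pregnancy or lactation and size of the load were not given in the sources used here. Nothing in the labels says that rats were pooled, and they name no allele or agent.

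The proteasome cuts cytosolic proteins into peptides. In cells exposed to interferon gamma, the immunoproteasome subunits Psmb8, Psmb9 and Psmb10 take the place of the standard catalytic subunits Psmb5, Psmb6 and Psmb7. The transporter formed by Tap1 and Tap2 moves peptides into the endoplasmic reticulum, where tapasin (Tapbp) holds it next to empty class I molecules, whose light chain is B2m. Class II molecules, with RT1-Da as the alpha chain of one of them in the rat, travel with the invariant chain Cd74 and are best known from dendritic cells, macrophages and B cells. Ubd (also called FAT10) is a ubiquitin-like protein that marks proteins for the proteasome. In the mammary gland, class I presentation is a property of most cells, while class II is mainly that of leukocytes and, to a lesser extent, of epithelium.

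On the GRCr8 assembly of RefSeq, 7 of the 10 genes lie on chromosome 20, which holds the major histocompatibility complex of the rat (RT1). Tap2 (4638257 to 4652296), Psmb8 (4654068 to 4657049), Tap1 (4658171 to 4668543) and Psmb9 (4668952 to 4674421) follow each other there with 1771, 1121 and 408 bases between neighbours. RT1-Da (4515393 to 4520387), Tapbp (4958821 to 4967958) and Ubd (1390734 to 1392685) lie farther off on the same chromosome. Psmb10 is on chromosome 19 (50740808 to 50743292), B2m on chromosome 3 (129549236 to 129555354) and Cd74 on chromosome 18 (56527071 to 56536406).

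Promoter windows of RefSeq (GRCr8, from 250 bases before to 50 bases after the start set for each window) were available for all 10 genes. That start is not always the edge of the gene's range given above. The matches of Tapbp and Psmb8 below lie inside those ranges. The windows are shown because they group the genes by sequence, independently of any signal. The letters GAAANNGAAA, the core of the interferon-stimulated response element to which interferon regulatory factors bind, were searched on both strands. They occurred in 6 of the 10 windows and in 3.92% of all 33469 windows of the same length. The stretches below hold every match in those 6 genes, on the strand of the gene, with matches on either strand in capitals (the run in Tapbp holds a pair of overlapping matches).
Psmb8 (chr20:4657011-4657050, minus strand): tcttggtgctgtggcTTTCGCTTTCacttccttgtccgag
Psmb10 (chr19:50743285-50743380, minus strand): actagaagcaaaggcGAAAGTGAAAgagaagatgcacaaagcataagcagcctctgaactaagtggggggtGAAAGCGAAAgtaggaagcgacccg
Tap1 (chr20:4668640-4668679, minus strand): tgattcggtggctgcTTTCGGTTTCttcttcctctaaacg
Tap2 (chr20:4652313-4652352, minus strand): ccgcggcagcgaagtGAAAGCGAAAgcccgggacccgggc
Tapbp (chr20:4967873-4967918, minus strand): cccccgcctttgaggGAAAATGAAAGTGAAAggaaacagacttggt
B2m (chr3:129549165-129549204, plus strand): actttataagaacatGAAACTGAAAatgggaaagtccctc

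The windows of Psmb9, Cd74, RT1-Da and Ubd did not hold these letters. The windows of Tap1 and Psmb9, which are transcribed away from each other, share 44 bases. The Tap1 match (4668655 to 4668664) lies between these genes but outside the Psmb9 window, so the window's edge decides that Psmb9 has none. A second motif, TAGNAACA, part of the X box of class II promoters, was found in the windows of the class II genes Cd74 and RT1-Da and in that of Ubd, and in 4.14% of all windows. The class II matches are shown in capitals.
Cd74 (chr18:56526973-56527010, plus strand): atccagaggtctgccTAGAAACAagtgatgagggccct
RT1-Da (chr20:4515316-4515353, plus strand): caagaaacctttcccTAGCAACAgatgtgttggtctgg

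The letters CCAAT of the Y box were present in 5 of the 10 windows and 37.5% of all windows. The gamma-activated site letters TTCNNNGAA were present in the Psmb8 window alone among the 10 and in 8.87% of all windows. A match describes the letters in the window and does not show that a factor binds there.

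Values are log2 signals, 1 unit being a doubling. Array medians ran from 4.32 to 4.56 in the 60 arrays of the hypergravity and standard gravity groups and from 4.87 to 5.02 in the microgravity set, so levels were compared only within a set. Signals below the array medians are near background, and differences against them are approximate. Milk protein markers stood at 11.45 to 12.73 in the mammary arrays used and at most at 5.47 in the others, hepatocyte markers at 11.43 to 11.79 in liver, and adipocyte markers at 9.52 to 10.76 in adipose tissue, against 7.30 to 8.35 in the mammary arrays of the same set and 7.75 to 8.74 in those of the microgravity set. Levels of different genes are not compared, since probe sets differ in brightness. Skeletal muscle markers exceeded the median of comparable arrays by more than 2 log2 units in M212H, M50H, A217H, A48S, VIVA and VIVC, and hepatocyte markers did in M56H and M52S. Calls that are lost without these arrays are given beside the value. In bulk tissue, fewer cells of a type and less RNA per cell cannot be told apart.

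The first question was how the genes differ between lactating and pregnant mammary gland. At standard gravity, 6 of the 10 genes fell in lactation and 0 rose (limma, adjusted p under 0.05), where 17.3% of all probe sets fell. The 6 were Tapbp, Tap1, Tap2, Psmb10, Cd74 and Ubd. The median difference of the 10 genes was -1.07 log2 units, against -0.01 over all probe sets. Every array of lactating gland lay below every array of pregnant gland for each of the 6. The share of all probe sets with such separate groups was not counted in any comparison. Groups without overlap, here and below, therefore add nothing to the calls.

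The peptide loading genes are described first. Tapbp, the tapasin that bridges transporter and class I molecule, had signals of 4.65, 4.78, 4.86, 4.94 and 4.98 in lactating glands, against 6.37, 6.70, 6.81, 6.81 and 7.31 in pregnant glands. It was 3.89-fold lower in lactation (4.84 ± 0.13 against 6.80 ± 0.34, SD, n = 5 each; log2 difference -1.96, SE 0.20, adjusted p = 2.3e-06). The lactating values were close together and little above the array medians.

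Tap1, the transporter chain encoded next to Psmb9, had 4.32, 4.52, 4.73, 5.25 and 5.55 in lactating glands, against 6.40, 6.42, 6.54, 6.87 and 7.26 in pregnant glands (log2 difference -1.82, SE 0.27, adjusted p = 6.76e-05). The lactating values of 4.32 and 4.52 lay within the range of the array medians (4.32 to 4.56), so the size of this difference is approximate. The second probe set of Tap1 gave means of 2.49 to 2.69 log2 units in the mammary groups, below all array medians, and carried no call. Tap2, its partner chain, had 4.73, 4.77, 5.05, 5.60 and 5.68 in lactating glands, against 6.13, 6.18, 6.27, 6.53 and 6.58 in pregnant glands. Its difference was -1.17 (SE 0.26, adjusted p = 0.00196). Both chains of the transporter thus had group ranges without overlap.

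B2m, the class I light chain, was near the top of the scale in every array. It had 12.58 to 12.68 in lactating glands and 12.68 to 12.97 in pregnant glands, a difference of -0.21 that did not pass (adjusted p = 0.0723) and did so without pregnant array M42S (adjusted p = 0.0416). Its other probe set was lower in lactation (11.19 ± 0.11 against 11.61 ± 0.11, n = 5 each; -0.42, SE 0.10, adjusted p = 0.00439). The probe sets of B2m therefore agree in sign and differ in call.

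Of the 3 immunoproteasome subunits, Psmb10 alone passed. Psmb10, which replaces Psmb7, had 5.46, 5.78, 5.93, 5.96 and 6.15 in lactating glands, against 6.34, 6.72, 6.91, 7.13 and 7.45 in pregnant glands. It was 2.08-fold lower in lactation (log2 difference -1.05, SE 0.19, adjusted p = 0.000323). Psmb9, which replaces Psmb6, had 6.04, 6.22, 6.23, 6.82 and 7.04 in lactating glands, against 7.03, 7.09, 7.16, 7.28 and 7.86 in pregnant glands, and the groups touch. Its difference of -0.81 did not pass (SE 0.31, adjusted p = 0.0531), though it did in 4 of 8 alternative analyses and without lactating array M216S (adjusted p = 0.0345).

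Psmb8, which replaces Psmb5, averaged 9.01 ± 0.44 in lactating glands and 9.10 ± 0.29 in pregnant glands (n = 5 each). Its difference was -0.08, with a 95% interval from -0.65 to 0.48. The differences between the 3 subunits were not tested.

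Of the class II genes, Cd74, the invariant chain, had 9.98, 10.14, 10.24, 10.33 and 11.07 in lactating glands, against 11.29, 11.30, 11.44, 11.46 and 11.67 in pregnant glands. It was 2.11-fold lower in lactation (log2 difference -1.08, SE 0.17, adjusted p = 0.000102). The highest lactating array, M219S, stood apart from the other 4. RT1-Da, a class II alpha chain, went the other way without passing, at 9.16 ± 0.44 in lactating glands and 8.56 ± 0.59 in pregnant glands (0.60, 95% interval -0.24 to 1.44, adjusted p = 0.284).

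Ubd had by far the widest spread. It had 2.96, 3.19, 3.65, 5.77 and 5.93 in lactating glands, against 8.13, 10.0025, 10.09, 10.26 and 10.77 in pregnant glands. The log2 difference was -5.55 (SE 1.51, adjusted p = 0.00796). Of the lactating arrays, 3 lay below the array medians, so the size of this difference is approximate.

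**Figure D1:**
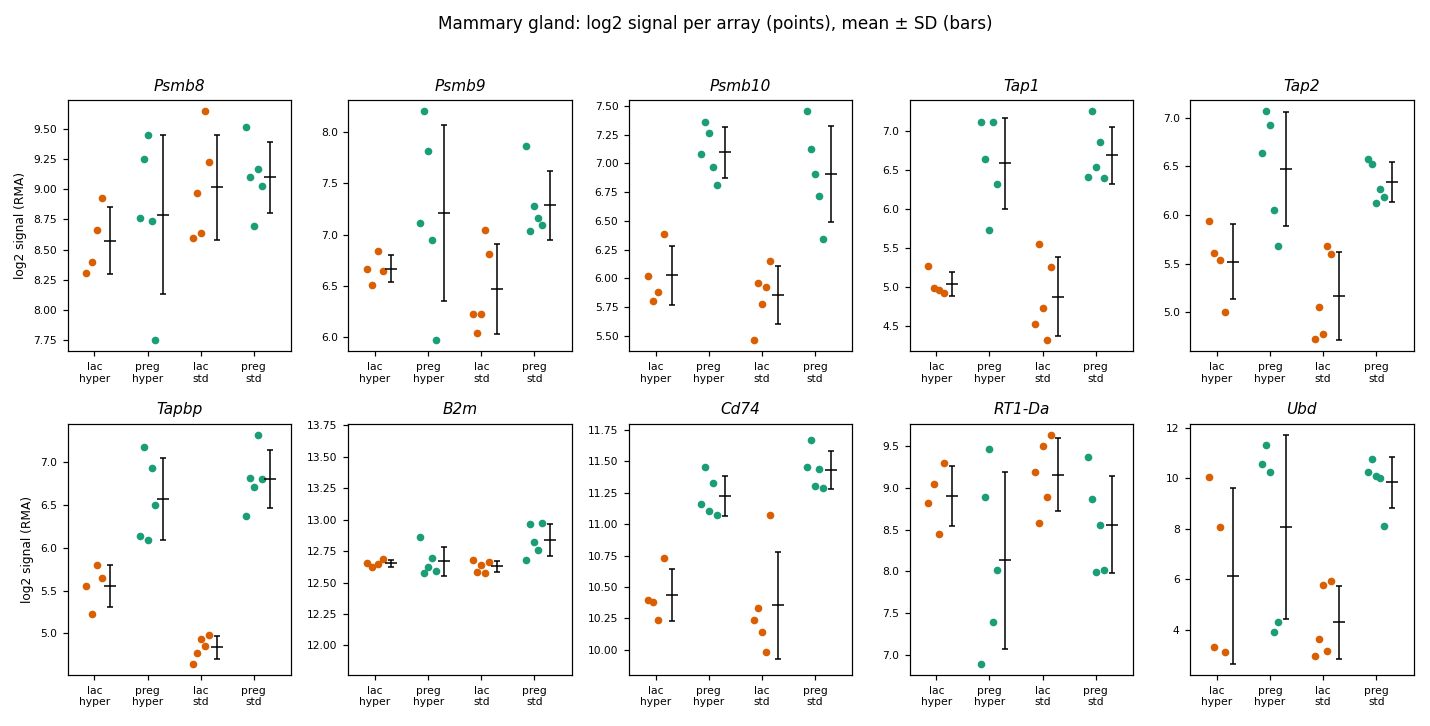
Log2 signal (vertical axes, each with its own range) of the 10 genes in mammary gland, with a point per array and the mean ± SD to the right of the points, in lactation (lac, orange) and pregnancy (preg, green) in hypergravity (hyper; n = 4 and 5) and at standard gravity (std; n = 5 each). Tap1, Tapbp, Psmb10 and Cd74 are lower in lactation in both gravity conditions with no overlap of the points, while Psmb8 overlaps in both and Ubd falls into low and high arrays in hypergravity. The share of all probe sets without overlap was not counted.

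In hypergravity the same comparison gave 5 of 10 genes that fell and 0 that rose, where 14.6% of all probe sets fell (n = 4 lactating and 5 pregnant). The median difference of the 10 genes was -0.87, against -0.04 over all probe sets. Tap1 had 4.93, 4.97, 4.99 and 5.27 in lactating glands, against 5.73, 6.33, 6.64, 7.12 and 7.13 in pregnant glands (log2 difference -1.55, SE 0.29, adjusted p = 0.00075). Psmb10 had 5.81, 5.89, 6.02 and 6.39 in lactating glands, against 6.81, 6.97, 7.08, 7.26 and 7.36 in pregnant glands (-1.07, SE 0.20, adjusted p = 0.000772). Neither gene's groups overlapped.

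Tapbp had 5.22, 5.55, 5.64 and 5.80 in lactating glands, against 6.09, 6.13, 6.49, 6.93 and 7.18 in pregnant glands (-1.01, SE 0.22, adjusted p = 0.00209). Cd74 averaged 10.44 ± 0.21 in lactating glands and 11.22 ± 0.16 in pregnant glands (n = 4 and 5), also without overlap (-0.79, adjusted p = 0.00311). Tap2 averaged 5.52 ± 0.39 in lactating glands and 6.47 ± 0.59 in pregnant glands with overlapping arrays (n = 4 and 5; -0.95, adjusted p = 0.0145). This call was lost without the arrays carrying markers of another tissue (adjusted p = 0.13) and without lactating array M217H (adjusted p = 0.059). The other 5 genes did not pass, among them Ubd (-1.93, SE 1.60, adjusted p = 0.401), Psmb8 (-0.22) and RT1-Da (0.77, adjusted p = 0.191). RT1-Da passed as higher in lactation with array weights (adjusted p = 0.0077) and without M56H (adjusted p = 0.029), and Psmb9 passed as lower without M60H (adjusted p = 0.0284).

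The difference between the stage effects of both gravity conditions was tested as an interaction and called 0 of the 10 genes, where 4.03% of all probe sets were called. Tapbp came nearest, since its fall in lactation was 0.95 log2 units smaller in hypergravity (SE 0.30, adjusted p = 0.0893). It was the single member at an unadjusted p under 0.05 there, where 2375 of all 31042 probe sets were higher at that threshold.

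Lists of related genes, fixed with earlier results of these data known, describe what moved beside the 10 genes. Over all probe sets, 16.8% rose and 17.3% fell in lactation at standard gravity, and 14.6% rose and 14.6% fell in hypergravity. Of 21 measured further class I pathway genes, 10 fell and 3 rose in lactation at standard gravity, with a list median of -0.36. RT1-S3, a class Ib heavy chain (-2.65, adjusted p = 1.78e-06), RT1-T24-3, another class I heavy chain gene (-1.94, adjusted p = 0.0016) and the lipid-presenting Cd1d1 (-1.90, adjusted p = 0.000157) fell. Sec61a1, the pore subunit of the endoplasmic reticulum, rose (1.98, adjusted p = 0.000164). In hypergravity 7 fell and 3 rose, with Nlrc5, the transactivator of class I genes, 2.62 log2 units lower in lactation (adjusted p = 1.15e-05) and the loading-complex disulfide isomerase Pdia3 1.49 higher (adjusted p = 0.00426).

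Of 15 further class II genes, 8 fell and 0 rose at standard gravity (list median -0.62), and 5 fell and 1 rose in hypergravity (list median -0.21). Ciita, the class II transactivator, was lower in lactation by -1.63 log2 units at standard gravity (adjusted p = 0.0119) and by -1.87 in hypergravity (adjusted p = 0.00929). RT1-Db1, the beta chain that pairs with RT1-Da, was lower by -1.62 (adjusted p = 4.37e-05) and -1.60 (adjusted p = 0.000161). RT1-Da itself was not called in either condition, and its difference from its partner chain was not tested. RT1-Bb, the beta chain of the other classical class II molecule, was lower at standard gravity (5.36 ± 1.79 in lactating against 8.62 ± 0.56 in pregnant glands, n = 5 each, adjusted p = 0.00925).

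Of 19 measured genes of interferon gamma signalling, 7 fell and 0 rose at standard gravity, and 6 fell and 2 rose in hypergravity. The GTPase Igtp fell by 2.24 log2 units at standard gravity (adjusted p = 6.73e-06) and by 1.98 in hypergravity (adjusted p = 8.07e-05). Irf1, an interferon regulatory factor, fell by 1.69 (adjusted p = 6.76e-05) and by 1.53 (adjusted p = 0.000482). The guanylate-binding protein gene Gbp4 fell by 1.50 (adjusted p = 0.00774) and 1.71 (adjusted p = 0.00602).

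Among 7 measured standard catalytic subunits and proteasome assembly factors, 2 rose and 2 fell in each gravity condition. Psmb7, the standard counterpart of Psmb10, rose in lactation, to 11.57 ± 0.19 against 10.10 ± 0.56 in pregnant glands at standard gravity (n = 5 each; 1.47, adjusted p = 0.000511), and by 1.39 in hypergravity (adjusted p = 0.00188). Psmb5, the counterpart of Psmb8, rose by 0.81 at standard gravity (adjusted p = 0.0256), while the assembly factor Psmg1 fell by 0.82 (adjusted p = 0.00377) and Psmg4 by 0.70 (adjusted p = 0.0218). In hypergravity Pomp, the chaperone of proteasome maturation, rose by 0.74 (adjusted p = 0.0113), and Psmg1 and Psmg2 fell. Psmb6 had no single-symbol probe set.

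Of 8 genes of ubiquitin-like modification, 5 fell and 2 rose at standard gravity, and 3 fell and 2 rose in hypergravity. Usp18, which removes Isg15 from proteins, fell by 1.88 (adjusted p = 0.000146) and 2.45 (adjusted p = 5.29e-05). Ube2z, the conjugating enzyme used by Ubd, rose by 1.02 at standard gravity (adjusted p = 0.00491) and by 1.11 in hypergravity (adjusted p = 0.00542), so it did not share the direction of Ubd.

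Some markers of other cells were also called in these 2 stage comparisons, in both directions in hypergravity. Their part in the results was not tested. Of 13 macrophage markers, 7 fell and 0 rose in lactation at standard gravity, and the mean over the list ran from 6.99 to 7.37 in lactating arrays and from 8.06 to 8.42 in pregnant arrays. In hypergravity 4 fell and 2 rose, and the list ran from 7.60 to 8.28 in lactating and from 7.95 to 8.42 in pregnant arrays. Lyz2, Cd68 and Aif1 fell at standard gravity by 2.52, 2.00 and 1.60. Of these 13 markers, 1 was below the array medians in every mammary group.

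Of 8 dendritic cell markers, 3 fell at standard gravity, and the list ran from 4.43 to 4.72 in lactating and from 4.92 to 5.53 in pregnant arrays. In hypergravity 2 fell and 1 rose, and the list ran from 4.80 to 5.15 in lactating and from 5.06 to 5.57 in pregnant arrays. Itgax, the integrin CD11c, fell by 2.75 (adjusted p = 9.99e-07) and by 1.79 in hypergravity (adjusted p = 0.000201). The median over the 8 dendritic cell markers was -0.25 at standard gravity and 0.01 in hypergravity, so Itgax does not stand for the list there. Of 15 T and NK cell markers 1 fell at standard gravity and 7 fell in hypergravity, with the list at 3.69 to 3.97 in lactating and 4.24 to 6.34 in pregnant arrays in hypergravity, and 13 of the 15 below the array medians in that lactating group. Of 7 B cell markers 0 passed in either condition, with the list at 3.52 to 6.11 in lactating and 3.40 to 4.41 in pregnant arrays at standard gravity and at 4.11 to 4.55 in lactating and 3.79 to 6.48 in pregnant arrays in hypergravity.

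Of 8 pan-leukocyte markers, 2 fell at standard gravity (5.49 to 6.83 in lactating and 6.15 to 6.90 in pregnant arrays) and 1 in hypergravity (6.13 to 6.46 in lactating and 6.34 to 7.67 in pregnant arrays). Of 13 luminal epithelial markers, 6 fell and 1 rose at standard gravity, with the list at 7.75 to 7.91 in lactating and 8.23 to 8.82 in pregnant arrays, and 2 fell and 3 rose in hypergravity, where it ran from 8.42 to 8.68 in lactating and from 8.02 to 8.70 in pregnant arrays. In hypergravity the macrophage, dendritic cell, B cell, pan-leukocyte and luminal lists overlapped between the stages, and the T and NK cell list did not.

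Hypergravity was then set against standard gravity within each stage. In pregnant mammary gland 0 of the 10 genes were called, and 0 had an unadjusted p under 0.05, where 0.00322% of all probe sets were called. Their differences ran from -1.78 (Ubd, 95% interval -4.94 to 1.39) to 0.19 (Psmb10, 95% interval -0.20 to 0.58). For Tap1 the interval was -0.67 to 0.46 and for Tapbp -0.66 to 0.19.

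In lactating mammary gland Tapbp alone was called, among 4.49% of probe sets that rose. It had 5.55 ± 0.24 in hypergravity and 4.84 ± 0.13 at standard gravity (n = 4 and 5), with no overlap, a log2 difference of 0.71 (SE 0.22, adjusted p = 0.0439). The call did not survive 3 of 8 alternative analyses, nor the removal of any 1 of 8 of the 9 arrays, where the adjusted p reached 0.126. The other 9 genes had differences between -0.44 (Psmb8) and 1.84 (Ubd, 95% interval -1.51 to 5.20). Of the macrophage markers 4 rose and 0 fell in this comparison, and the list ran from 7.60 to 8.28 in hypergravity and from 6.99 to 7.37 at standard gravity. Of the luminal markers 6 rose, with the list at 8.42 to 8.68 in hypergravity and 7.75 to 7.91 at standard gravity, and the part of either in the Tapbp value was not tested.

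Among related genes in this comparison, the class I-like Mr1 (1.38, adjusted p = 0.0126) and Cd1d1 (1.11, adjusted p = 0.0398) were higher in hypergravity, and Nlrc5 was lower (-0.97, adjusted p = 0.0387). Of the 19 interferon gamma genes, the kinases Jak2 (1.32, adjusted p = 5.28e-05) and Jak1 (0.65, adjusted p = 0.0191) and the receptor chain Ifngr2 (1.16, adjusted p = 0.0224) rose, and the chemokine Cxcl9 fell by 0.96 (adjusted p = 0.00581).

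Liver and adipose tissue came from rats with the same numbers. In liver, lactation against pregnancy called 0 of the 10 genes at standard gravity (0.622% of all probe sets called in either direction, 4 members at an unadjusted p under 0.05) and 0 in hypergravity (3.23% called, 1 member unadjusted). The 4 members were lower, as were 1759 of all 31042 probe sets at that unadjusted threshold. The 1 member in hypergravity was higher, as were 2298 probe sets. Tap1 had 4.17, 4.70, 4.85, 4.91 and 4.98 in lactating livers, against 4.98, 5.32, 5.40, 5.45 and 5.84 in pregnant livers at standard gravity. These arrays did not overlap, but the difference of -0.68 did not pass (SE 0.18, adjusted p = 0.107). RT1-Da in liver also had separate groups, at 8.46 ± 0.33 in lactation and 9.06 ± 0.37 in pregnancy (n = 5 each; adjusted p = 0.234). In the same comparison the class Ib gene RT1-S3 (-0.91, adjusted p = 0.000534) and Irf9 (-0.93, adjusted p = 0.0164) fell.

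In hypergravity, Tap2 in liver stood at 5.59 ± 0.65 in lactation and 4.97 ± 0.30 in pregnancy (n = 5 each; 0.62, adjusted p = 0.162), and passed without lactating array L210H (adjusted p = 0.0238). Hypergravity against standard gravity called 0 members in pregnant liver (0.103% of probe sets called, 2 members unadjusted) and 0 in lactating liver (0.406% called, 1 member unadjusted). The 2 members were lower, as were 1371 of all 31042 probe sets at an unadjusted p under 0.05. The 1 member in lactating liver was higher, as were 1971 probe sets. The interaction in liver called 0 (0.126% called, 0 members unadjusted).

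In adipose tissue 0 members were called in any of 5 comparisons. The share of probe sets called was 0.00322% for stage at standard gravity and 0% for stage in hypergravity, for hypergravity in pregnancy, for hypergravity in lactation and for the interaction. At an unadjusted p under 0.05, 1 member was lower in lactation in each gravity condition (Tap2 in both; at standard gravity 5.09 ± 0.17 in lactation and 5.56 ± 0.40 in pregnancy, n = 5 each). Of all 31042 probe sets, 718 were lower at that threshold at standard gravity and 619 in hypergravity. Unadjusted counts of members were 0 in the other 3 comparisons.

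**Figure D2:**
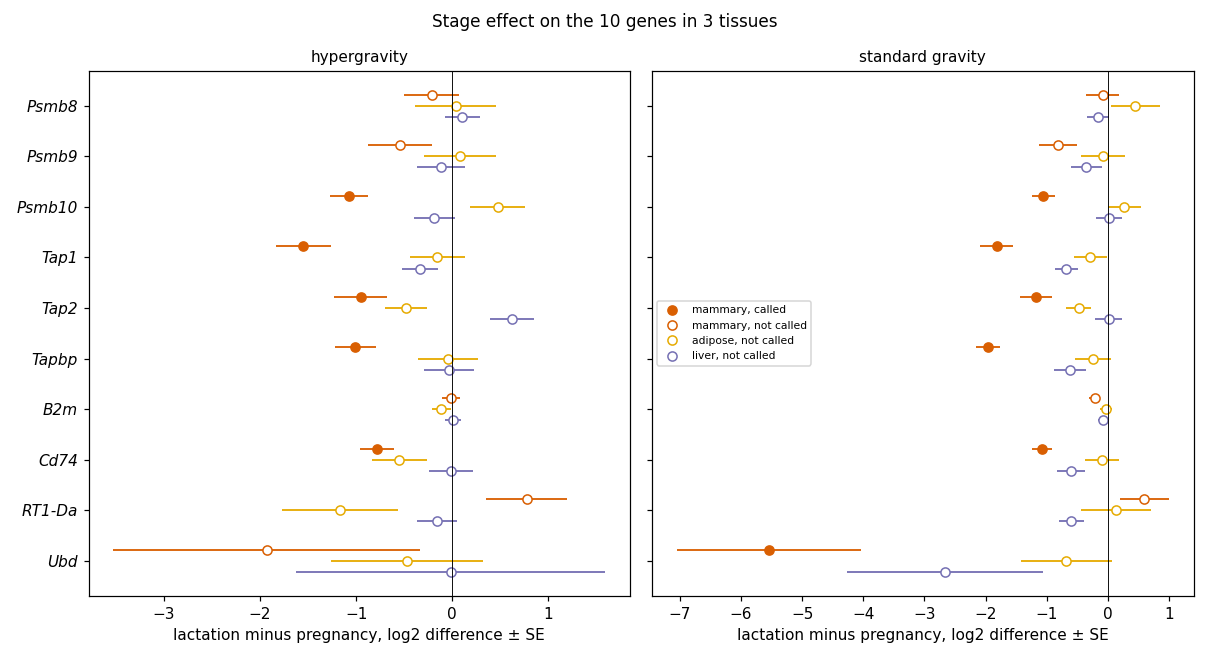
Lactation minus pregnancy in log2 units (horizontal axes, point ± SE) for the 10 genes in mammary gland (orange), adipose tissue (yellow) and liver (purple), in hypergravity on the left and at standard gravity on the right, filled where limma called the difference. Filled points are mammary gland alone, with 5 genes in hypergravity and 6 at standard gravity, all left of 0.

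Whether the stage effect differed between tissues was tested directly at standard gravity, in a fit of all 3 tissues. Against liver, the mammary stage effect was more negative for 4 of 10 genes, where 11.4% of all probe sets were lower. These were Tapbp (-1.34, SE 0.37, adjusted p = 0.00639), Tap2 (-1.18, SE 0.34, adjusted p = 0.00808), Tap1 (-1.14, SE 0.36, adjusted p = 0.0148) and Psmb10 (-1.07, SE 0.33, adjusted p = 0.0135).

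Against adipose tissue it was more negative for 4 genes, where 11.7% of probe sets were lower. These were Tapbp (-1.71, SE 0.37, adjusted p = 0.000614), Tap1 (-1.53, SE 0.36, adjusted p = 0.00122), Psmb10 (-1.32, SE 0.33, adjusted p = 0.00247) and Cd74 (-0.98, SE 0.33, adjusted p = 0.0262). The call of Cd74 was lost without arrays carrying markers of another tissue (adjusted p = 0.0581) and in 4 of 20 cases where 1 array was left out, with M216S, M44S, A57S or A219S removed (adjusted p up to 0.0757). Psmb8 was called in neither, with 95% intervals from -0.79 to 0.94 against liver and from -1.40 to 0.33 against adipose tissue. Ubd differed by -4.87 between mammary gland and adipose tissue without passing (SE 1.99, adjusted p = 0.0819). It passed with the rat as a block (adjusted p = 0.0471) and with the groups compared only (adjusted p = 0.000732), and in none of the other alternatives. Both comparisons use the same mammary arrays.

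The hypergravity effect in lactation did not differ for any member between mammary gland and liver (0 of 10, 4.7% of probe sets called) or adipose tissue (0 of 10, 4.67% called). No member had an unadjusted p under 0.05 in either.

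Ubd was followed rat by rat, because its arrays fell into low and high values. The first letter of an array code stands for mammary gland, liver or adipose tissue, and the last for hypergravity or standard gravity, with the number of the rat between them. In lactating glands in hypergravity it had 10.07 and 8.06 in M203H and M212H, and 3.31 and 3.13 in M206H and M217H. In pregnant glands in hypergravity it had 10.56, 11.32 and 10.26 in M50H, M55H and M56H, and 3.90 and 4.32 in M59H and M60H. No value lay between 4.32 and 8.06 in these 9 arrays. Among the high ones, M50H and M212H carried skeletal muscle markers and M56H carried hepatocyte markers. The part of these in the Ubd values was not tested.

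Liver arrays with the same rat numbers showed a like pattern. L59H and L60H had 3.20 and 3.68, and L206H and L217H had 3.25 and 3.52, whereas L50H, L55H, L56H, L203H and L212H had 8.83 to 10.67. L210H, of the rat number whose mammary array was left out, lay between these at 7.35. Livers of lactating rats at standard gravity had 8.71, 8.41 and 9.90 in L201S, L202S and L214S, but 3.54 and 3.24 in L216S and L219S. Those of pregnant rats at standard gravity had 9.07 to 9.93.

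The tissues did not follow each other in lactation at standard gravity. The glands of the rats with high livers had 2.96, 3.65 and 5.77 (M201S, M202S and M214S), and those of the rats with low livers had 3.19 and 5.93 (M216S and M219S). In adipose tissue Ubd was low in most rats, from 2.47 to 7.30, with the highest values in A56H, A203H and A42S (7.30, 6.23 and 6.19). Within the microgravity set, which is on its own scale, the 12 arrays lay between 9.49 and 11.08 with no separate low values. No test was made on these values, since the levels themselves sort the rats.

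**Figure D3:**
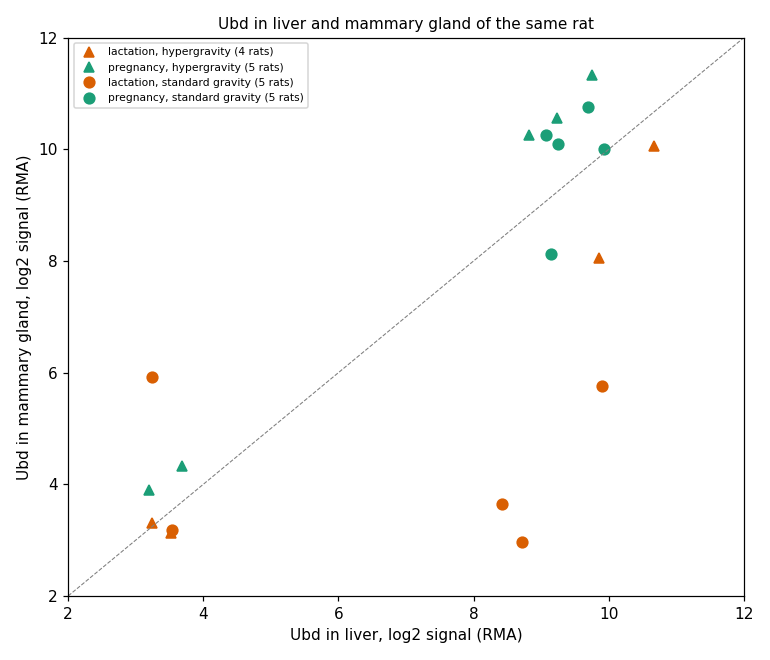
Ubd log2 signal in mammary gland (vertical axis) against liver (horizontal axis) of the same rat number, for lactation (orange) and pregnancy (green) in hypergravity (triangles, 4 and 5 rats) and at standard gravity (circles, 5 rats each), with a dashed line of equality. Rat 210 (liver value 7.35) is not shown, since its mammary array was left out. Mammary arrays M50H and M212H carried skeletal muscle markers, and M56H and M52S carried hepatocyte markers. A group of 6 rats has liver values under 4, with mammary values from 3.13 to 5.93, and 3 lactating rats at standard gravity lie at the lower right, with liver values of 8.41 to 9.90 and mammary values of 2.96 to 5.77.

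RT1-Da varied between arrays as well. In adipose tissue of lactating rats in hypergravity it had 10.39, 7.17, 8.45 and 10.69 in A203H, A206H, A212H and A217H. In pregnant mammary gland in hypergravity it had 6.89 and 7.39 in M50H and M59H, against 8.01 to 9.47 in the other 3. Of these, M59H was also low in Ubd (3.90), whereas M50H was high (10.56). M50H and A217H carried skeletal muscle markers, and the part of these in the RT1-Da values was not tested.

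The levels over the 12 groups ranged least for B2m, with group means 0.31 log2 units apart, and most for Ubd, with 6.01. When the group means of a gene were put in order, 6 of 110 steps between neighbours were larger than the SD of both groups. Putting means in order makes such steps small, so this count does not show that groups were alike. The larger steps were 1 each for Psmb8, Psmb10, Tap1, Tap2, Tapbp and Cd74. For Tap1, Tap2, Tapbp and Psmb10, both pregnant mammary groups headed the order. Their means in hypergravity and at standard gravity were 6.59 and 6.70 for Tap1, 6.47 and 6.34 for Tap2, 6.56 and 6.80 for Tapbp, and 7.10 and 6.91 for Psmb10.

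Averaged over the stage and gravity groups, mammary gland was higher than liver for 5 genes (32.1% of probe sets higher) and lower for 2 (34.4% lower). Cd74 was higher (1.21, adjusted p = 6.35e-13), as were Tap1 (0.76), Tap2 (0.71), Tapbp (0.56) and, by little, B2m (0.09, adjusted p = 0.0363). In lactation alone, Tapbp was lower in mammary gland than in liver at standard gravity (4.84 ± 0.13 against 5.01 ± 0.39, n = 5 each). It was higher in hypergravity (5.55 against 5.43). Tap2 was lower in lactation in hypergravity (5.52 ± 0.39 against 5.59 ± 0.65, n = 4 and 5) and higher at standard gravity (5.17 against 5.05). These lactation differences were not tested. The B2m call was lost without arrays carrying markers of another tissue (adjusted p = 0.0563), with low values left out and in 8 of 39 cases where 1 array was left out (adjusted p up to 0.0705), and its sign turned with array medians set equal. That scaling moved the median over all probe sets to -0.17, against -0.05 as deposited. Psmb9 was lower (-0.71, adjusted p = 0.000154), as was Psmb8 (-0.35, adjusted p = 0.0436). The Psmb8 call was lost in 21 of 39 cases where 1 array was left out.

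Mammary gland was higher than adipose tissue for 6 genes (26.4% higher), namely Ubd (2.84), Tapbp (1.00), Tap1 (0.89), Psmb8 (0.88), Psmb10 (0.49) and Tap2 (0.48). These values average both stages. In lactation Psmb10 was lower in mammary gland than in adipose tissue, at 6.03 ± 0.26 against 6.35 ± 0.16 in hypergravity (n = 4 each) and 5.86 ± 0.25 against 5.98 ± 0.15 at standard gravity (n = 5 each), differences that were not tested. Mammary gland was lower in the average for RT1-Da alone (-1.27, adjusted p = 2.62e-06; 25.6% lower). Adipose tissue was higher than liver for Cd74 (1.44) and RT1-Da (1.32), where 28.9% of probe sets were higher, and lower for Psmb8 (-1.22), Psmb9 (-0.96), Psmb10 (-0.69), Tapbp (-0.45) and Ubd (-3.26), where 32.8% were lower. Adipose RNA was extracted with another kit than the rest, so tissue and kit cannot be told apart there.

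**Figure D4:**
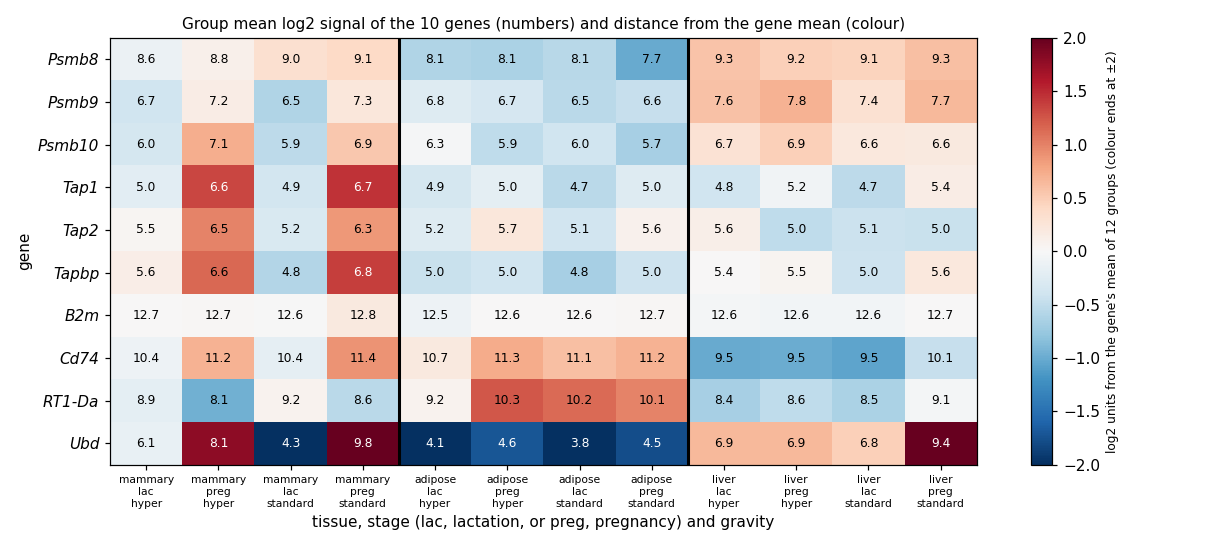
Mean log2 signal (numbers) of the 10 genes (rows) in the 12 groups (columns: tissue, stage and gravity; n = 5, or 4 for lactation in hypergravity in mammary gland and adipose tissue), coloured by distance from the gene's own mean over the groups in log2 units. The pregnant mammary columns are red for Tap1, Tap2, Tapbp and Ubd, adipose columns are blue for Psmb8 and Ubd, with RT1-Da red in 3 of 4 of them, and B2m is nearly without colour.

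In the microgravity set, microgravity against the flight control called 0 of the 10 genes, where 0.367% of all probe sets were called. At an unadjusted p under 0.05, 4 members were lower and 0 higher. Of all 31042 probe sets, 2259 were lower and 1841 higher at that threshold. Psmb10 had 6.56, 6.77, 6.96 and 7.04 in microgravity, against 7.14, 7.25, 7.79 and 7.81 in the flight control, with no overlap (-0.67, SE 0.17, adjusted p = 0.117). Psmb9 had 6.69, 6.94, 7.28 and 7.42 in microgravity, against 7.32, 7.71, 8.07 and 8.36 in the flight control, which overlap slightly (-0.78, SE 0.22, adjusted p = 0.145). Tap1 averaged 6.52 ± 0.18 in microgravity and 7.01 ± 0.24 in the flight control (n = 4 each, -0.50, adjusted p = 0.23).

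Against the vivarium control, 0 members were called as well (0.493% of probe sets called), with 2 lower at an unadjusted p under 0.05. Of all 31042 probe sets, 1580 were lower at that threshold. Psmb10 was -0.44 lower in microgravity (95% interval -0.81 to -0.08, adjusted p = 0.378) and Psmb9 -0.52 (95% interval -0.99 to -0.05, adjusted p = 0.454). Both comparisons share the microgravity arrays. The flight control against the vivarium control called 0 (0.00322% called), with Cd74 (0.33) and RT1-Da (0.58) higher at an unadjusted p under 0.05. Of all 31042 probe sets, 1694 were higher at that threshold. Ubd was 10.62 ± 0.25 in microgravity, 10.58 ± 0.54 in the flight control and 10.25 ± 0.64 in the vivarium control (n = 4 each).

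The flight control array FDSB stood apart. It had the highest Cd74 (12.39, against 11.85 to 11.94 in the other 3) and RT1-Da (10.58, against 9.44 to 9.97). Its B cell list reached 8.97, its T and NK cell list 7.32 and its pan-leukocyte list 8.63, the highest of the set, and the part of these cells in the flight control values was not tested. Of 15 T and NK, 7 B cell and 8 pan-leukocyte markers 0 were called between microgravity and the flight control.

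**Figure D5:**
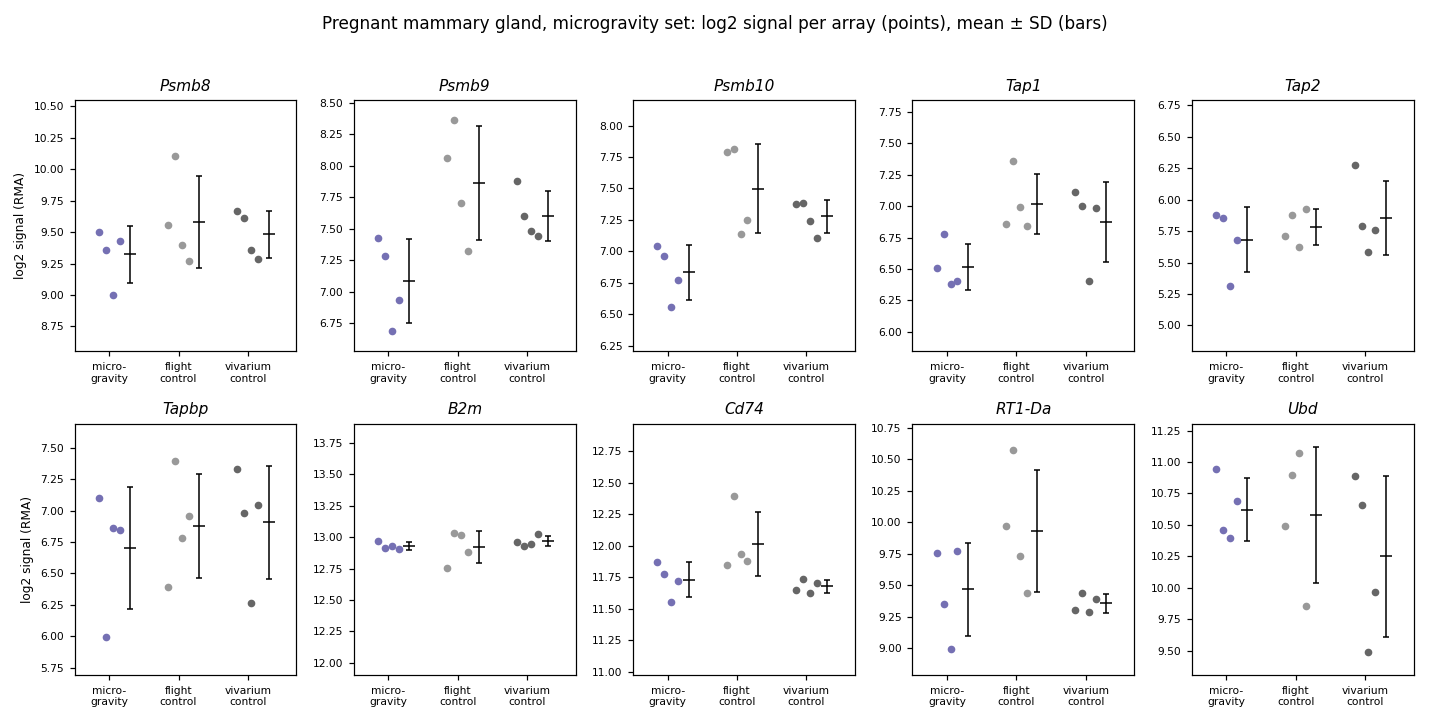
Log2 signal (vertical axes, each with its own range) of the 10 genes in pregnant mammary gland of the microgravity set, with a point per array and the mean ± SD to the right of the points, in microgravity, flight control and vivarium control (n = 4 each). Psmb10 in microgravity (6.56 to 7.04) lies below every array of both controls, and the high points of Cd74 and RT1-Da in the flight control are array FDSB. The Psmb10 difference was not called against either control, and the share of all probe sets without overlap was not counted.

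The genes whose signal was most like that of 3 members were sought over 58 arrays, after the mean of each tissue had been subtracted. They share arrays, rats and stage, so the correlations are descriptions. Psmb9 was most like Ifi35 (r = 0.74), Ifi27l2b (0.65) and Ifi30 (0.64). Cd74 was most like RT1-Db1 (0.86), Slfn2 (0.77) and Ly86 (0.74). Ubd was most like H2-Q7-ps1 (0.71), Nob1 (0.70) and RT1-DMb (0.60). Among the members, Psmb9 with Psmb10 (0.74), Tap1 with Tapbp (0.73) and Psmb8 with Psmb9 (0.70) were the most alike, and Tap1 with RT1-Da (-0.23) the least.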

How the data were processed

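Of the rat arrays, 1 deposited table of 31042 probe sets and 72 arrays was used, with 0 columns set aside. Its values are log2 signals made by the authors with RMA (version not given in the sources used here), per the submitters' processing notes; per the labels' protocols, 25 ng of total RNA was amplified with the NuGEN Ovation Biotin system, after TRIzol (mammary gland, liver) or RNeasy Lipid (adipose tissue) extraction. Which arrays were normalized together is not stated.

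Groups came from the labels. The labels do not say that arrays of a group are separate animals beyond their rat numbers, so p-values measure the spread between these arrays. Tests used lmFit and eBayes of limma 3.58.1 under R 4.3.3 (group means, 1 fit per tissue, 1 for the microgravity set, 1 over 3 tissues; two-sided; Benjamini-Hochberg over 31042 probe sets; called under an adjusted p of 0.05) without a filter, on code tested on simulated data with 200 changed probe sets. The number of arrays limits the precision.

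The members and lists (16 lists, 192 of 218 genes measured) were chosen with earlier results of these data known. Named list genes are up to 4 called with the largest difference, or up to 2 with the smallest p. A gene has its brightest single-symbol probe set. Rat numbers recur across tissues and pair the samples of the 3 tissues per the labels (consensus correlation 0.097). Alternatives were array weights, trend and robust eBayes, groups compared only, a filter on low values, mean probe sets, equal array medians, exchanged arrays kept, arrays with markers of another tissue left out, each array left out and a replicate block.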

Additional observations from a re-analysis of the deposited data

Results flagged for a closer look

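Within groups, 150 sets of a gene and a group were checked for an array far from the others by Dixon's test, which flags about 1 in 20 by chance, and 6 were found. Psmb10 was low in adipose array A217H (6.11, others 6.40 to 6.44) and in A214S (5.73, others 6.00 to 6.10). B2m was high in A203H (12.68, others 12.47 to 12.50) and in A219S (12.79, others 12.57 to 12.63), and low in liver array L214S (12.37, others 12.59 to 12.66). Cd74 was high in the flight control array FDSB (12.39, others 11.85 to 11.94). A217H also carried skeletal muscle markers. No comparison in adipose tissue called a member, with or without these arrays.

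The stage effect at standard gravity differed between tissues by an interaction test (limma, 2 contrasts of 10 genes). Against liver, the effect in mammary gland was lower by -1.34 for Tapbp (adjusted p = 0.00639), -1.18 for Tap2 (adjusted p = 0.00808), -1.14 for Tap1 (adjusted p = 0.0148) and -1.07 for Psmb10 (adjusted p = 0.0135). Against adipose tissue it was lower by -1.71 for Tapbp (adjusted p = 0.000614), -1.53 for Tap1 (adjusted p = 0.00122), -1.32 for Psmb10 (adjusted p = 0.00247) and -0.98 for Cd74 (adjusted p = 0.0262).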

How the results depend on the processing

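Outside the comparisons of tissue levels, 20 member results were called, of which 17 kept their call in every alternative and 17 whichever array was left out. In the mammary stage comparison, 6 to 8 members were called at standard gravity and 4 to 6 in hypergravity. The count for hypergravity in lactating mammary gland, 1 (Tapbp), fell to 0 with the exchanged arrays kept, with trend and robust eBayes and with array medians set equal, and was 0 to 1 with each array left out. For the mammary interaction it was 1 with array weights (Tapbp, adjusted p = 0.0454), and 0 to 1 with each array left out (1 without M55H), as for liver stage in hypergravity (1 without L210H). With array medians set equal, B2m reversed, to -0.035 between mammary gland and liver and -0.125 between adipose tissue and liver. The cause was not tested. As deposited, B2m was not called between adipose tissue and liver (0.017, adjusted p = 0.72), but it was with the mean of its probe sets. The dimmer B2m probe set had group means of 11.40 to 11.66 in adipose tissue and 11.03 to 11.37 in liver. In the paired analysis with the rat as a replicate block, Ubd passed for the stage effect of mammary gland minus adipose tissue (-4.87, adjusted p = 0.0471), and no other member call changed. The letters in the microgravity codes do not pair its arrays (12 same-letter correlations from -0.15 to 0.083), and with them as a replicate block 0 members were called. Over all probe sets, microgravity against the vivarium control called 99 higher and 54 lower, but 8 and 3 without VIVA and VIVC and 390 and 359 with array weights. Signals near background, such as Ubd in low rats and Tap1's dimmer probe set, limit the size of differences, as do 4 or 5 arrays per group.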
